A study of Homo sapiens with 6 samples.

Results

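The Sprouty genes SPRY1, SPRY2 and SPRY4, the SPRED genes SPRED1 and SPRED2, the PEA3-type ETS factor genes ETV1, ETV4 and ETV5, and the output genes PHLDA1 and CCND1 were followed in U2OS cells, a human osteosarcoma line. They were taken by symbol, as 10 of the 50550 rows of a gene count table and of a matching FPKM table. The samples were 6 libraries of bulk RNA, 3 labelled Lv_LINC00673 and 3 labelled Lv_NC. The design text describes U2OS cells with LINC00673, a long noncoding RNA, knocked down beside unmodified cells, and the comparison asks what depletion of that RNA does to gene expression. The genotype label reads LINC00673 in 3 libraries and NC in the other 3. No other allele, agent or time is given, and the labels do not spell out Lv or NC or say whether NC cells carried a control vector. Nor do they state that each library is a culture of its own. The p-values therefore reflect library-to-library spread only, and that spread may be technical.

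Growth factor receptors signal through RAS, RAF and MEK to the kinase ERK, which enters the nucleus and raises transcription of a set of target genes. Some of these targets act back on the pathway: Sprouty proteins hold back signalling between the receptor and RAF, and SPRED proteins bring the RAS inactivator neurofibromin to the membrane. Others carry the signal onward, among them the ETS factors ETV1, ETV4 and ETV5, whose genes are held down by the repressor CIC until ERK signalling relieves it, and CCND1, the cyclin that activates CDK4 and CDK6 for entry into the cell cycle.

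Total counts were 61815841 to 71237493 in Lv_LINC00673 libraries and 76814723 to 87227980 in Lv_NC libraries. LINC00673 itself had 479, 417 and 435 counts in the libraries labelled Lv_LINC00673, against 709, 751 and 516 in the libraries labelled Lv_NC. Its log2 fold change was -0.41 (SE 0.16) and did not pass the threshold (adjusted p = 0.0924, edgeR's quasi-likelihood test with Benjamini-Hochberg adjustment over all tested genes, as for each adjusted p below unless another is named). Levels are given as TMM-scaled CPM (reads scaled to a common library size), as mean ± SD with n = 3 in each group. Of 7 osteosarcoma and mesenchymal markers, 5 were expressed highly enough to test. The marker VIM averaged 2605 CPM in Lv_LINC00673 libraries and 2055 CPM in Lv_NC libraries, and the osteoblast regulator RUNX2 averaged 4.35 and 1.83 CPM in Lv_LINC00673 and Lv_NC libraries. VIM, RUNX2 and ALPL were called higher, and COL1A1 was not called. SPARC was called lower, at 434 CPM in Lv_LINC00673 libraries and 559 CPM in Lv_NC libraries (log2 fold change -0.36, adjusted p = 0.0141). The markers SP7 and COL1A2 were too low to test. Summed over the list, the markers reached 3158 to 3532 CPM in Lv_LINC00673 libraries and 2746 to 2965 CPM in Lv_NC libraries, mostly VIM. Of the 5 tested, 3 were called higher and 1 lower, against 14.3% and 12.5% of all tested genes. The 11 markers of blood, epithelial, endothelial and neural cells summed to 31.3 to 34.2 CPM in Lv_LINC00673 libraries and 32.3 to 37.5 CPM in Lv_NC libraries, with none of the 5 tested called and HBB and LYZ at 0. Most of that sum was the neural marker SYP, with 25.8 to 28.2 CPM in Lv_LINC00673 libraries and 26.8 to 32.5 CPM in Lv_NC libraries, and none of the other 10 markers exceeded 3.02 CPM in a library.

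The 10 feedback and output genes did not move together. ETV1 rose 3.07-fold, SPRY2 fell to 64.5% of its Lv_NC level, and ETV4 fell by a smaller amount that was not kept under every processing. SPRED1, SPRED2, ETV5, PHLDA1 and CCND1 did not pass the test, and SPRY1 and SPRY4 had too few reads to be tested. Of the 8 tested members, 1 was called higher and 2 lower, against 14.3% of 21933 tested genes called higher and 12.5% called lower. The share higher was close to that of all genes and the share lower was above it, on counts of 1 and 2 genes and with no test of either. The groups did not overlap in CPM for 1 member that was higher and 3 that were lower, where 23.7% of all tested genes did not overlap and were higher and 21.4% did not overlap and were lower. Counted in either direction, 3 of the 8 were called, against 26.8% of all tested genes, and ETV1 was the 1 member also at least 2-fold changed, against 8.38%. Over the 8 tested members the log2 fold change had its median at -0.10, against 0.05 over all tested genes.

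**Figure D1:**
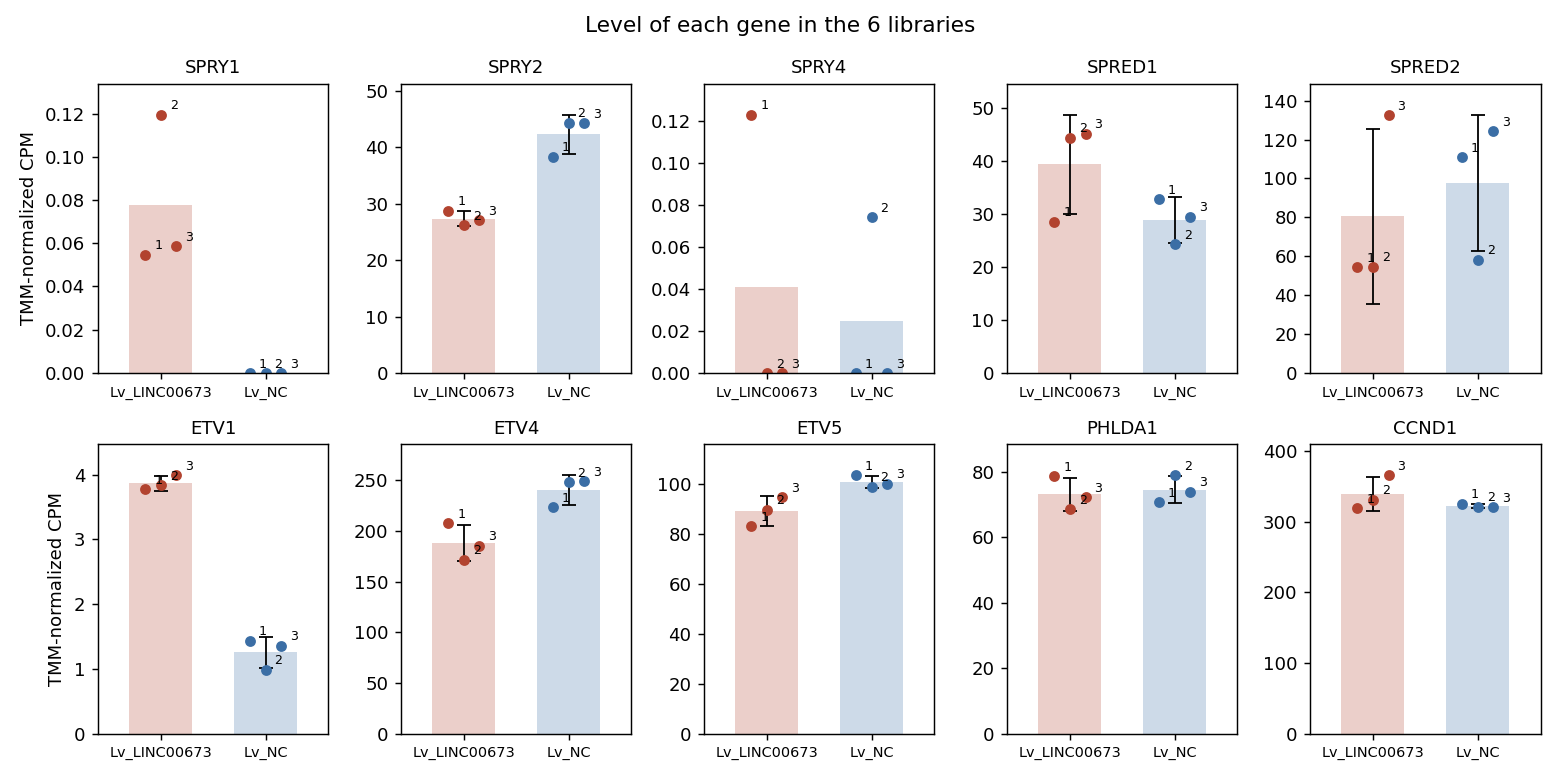
TMM-normalized CPM (vertical axes, each from 0) of each of the 10 genes in the 3 Lv_LINC00673 libraries and the 3 Lv_NC libraries, with points for libraries and black bars for the mean and SD. ETV1 points lie between 3.77 and 3.99 CPM in Lv_LINC00673 and between 0.987 and 1.43 CPM in Lv_NC, while SPRED2 points spread from 54.4 to 133 CPM within Lv_LINC00673 alone.

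Among the Sprouty genes, which encode inducible inhibitors of receptor signalling, SPRY2 was the one with more than a few reads among the 3 members. SPRY2 lies on chromosome 13 (80335976 to 80341126 on the minus strand, GRCh38.p14, protein coding). It had 2106, 1750 and 1844 counts in Lv_LINC00673 libraries, against 2968, 3593 and 3232 counts in Lv_NC libraries. Its scaled level was 28.8, 26.1 and 27.0 CPM in Lv_LINC00673 libraries and 38.4, 44.3 and 44.3 CPM in Lv_NC libraries. Every Lv_LINC00673 library lay below every Lv_NC library, and the spread within each group was small, with the highest library 1.10 times the lowest in Lv_LINC00673 and 1.16 times in Lv_NC. SPRY2 averaged 27.3 ± 1.34 CPM in Lv_LINC00673 libraries and 42.3 ± 3.46 CPM in Lv_NC libraries. The log2 fold change was -0.63 (SE 0.11, 95% interval -0.88 to -0.39, adjusted p = 0.00646), with a lower level in all 3 Lv_LINC00673 libraries. FPKM, which divides counts by transcript length and by library, gave 12.4, 11.9 and 12.1 in Lv_LINC00673 libraries and 15.5, 17.3 and 17.5 in Lv_NC libraries, again without overlap. In bulk RNA, fewer cells that express a gene and less RNA per cell cannot be told apart, here or for any gene below.

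The window from 250 bases before to 50 bases after the first annotated SPRY2 start site is shown because SPRY2 was the feedback inhibitor that fell (RefSeq, GRCh38.p14, chr13:80341077-80341376, minus strand, 5′ to 3′). None of the 3 motifs searched in it had a match, so no letters are in capitals.
SPRY2 start site 1: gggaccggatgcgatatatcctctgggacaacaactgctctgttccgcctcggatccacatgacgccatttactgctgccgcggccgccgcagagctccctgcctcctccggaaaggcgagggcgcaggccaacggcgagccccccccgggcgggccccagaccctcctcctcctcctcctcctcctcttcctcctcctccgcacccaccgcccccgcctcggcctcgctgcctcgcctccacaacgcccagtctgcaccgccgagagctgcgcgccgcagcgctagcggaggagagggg
The motifs were the octamers bound by CIC, written as TGAATGAA, TCAATGAA, TGAATGGA and TCAATGGA, the ETS word CGGAAGT and the AP-1 site TGANTCA. Each was searched on both strands, and no other ETS words were searched. Entries were matched for 7 of the 10 members, with 16 start sites in all, and ETV4, ETV5 and CCND1 were not matched. A CIC octamer was in 1 of the 16 windows and in 3.77% of all 35116 windows. The AP-1 site was in 1 of the 16 and in 7.71% of all windows. The word CGGAAGT was in 0 of the 16 and in 6.83% of all windows. A match is a description of the letters and not evidence of binding.

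SPRY1, a Sprouty paralogue on chromosome 4, was close to the limit of detection. It had 4, 8 and 4 counts in Lv_LINC00673 libraries and 0 counts in each Lv_NC library. All 3 Lv_LINC00673 libraries had reads and no Lv_NC library had any, but the row was below the filter for testing. Summed over a group, this was 0.0812 CPM in Lv_LINC00673 (exact 95% Poisson interval 0.0464 to 0.132, counting error only). In Lv_NC it was 0 CPM, with an interval of the same kind of 0 to 0.015. These summed levels, and those of SPRY4 below, were divided by total counts without TMM scaling. With no filter SPRY1 did not pass the test (adjusted p = 0.129). SPRY4, a Sprouty paralogue on chromosome 5, had 9, 0 and 0 counts in Lv_LINC00673 libraries and 0, 6 and 0 counts in Lv_NC libraries. A single library held all SPRY4 reads in each group, and the intervals of the summed levels overlapped, at 0.0209 to 0.0867 CPM in Lv_LINC00673 and 0.00898 to 0.0533 CPM in Lv_NC.

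SPRED1 and SPRED2, whose products carry neurofibromin to RAS at the membrane, were both expressed, and neither passed the test. SPRED1 lies on chromosome 15 (38252836 to 38357249) and had 28.6, 44.4 and 45.2 CPM in Lv_LINC00673 libraries, against 32.8, 24.4 and 29.5 CPM in Lv_NC libraries. The groups overlapped because Lv_LINC00673 library 1 lay below Lv_NC library 1 and Lv_NC library 3, while the other 2 Lv_LINC00673 libraries lay above all of Lv_NC. SPRED1 averaged 39.4 ± 9.41 CPM in Lv_LINC00673 libraries and 28.9 ± 4.28 CPM in Lv_NC libraries. The log2 fold change was 0.45 (SE 0.19, 95% interval 0.01 to 0.88) with an unadjusted p of 0.0459 and an adjusted p of 0.118. Without Lv_LINC00673 library 1 it was 0.62 and passed the threshold (adjusted p = 0.0158), and with an offset for GC content and transcript length it was -0.23, with the opposite sign (adjusted p = 0.14).

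SPRED2 lies on chromosome 2 (65307175 to 65432599) and had 54.4, 54.5 and 133 CPM in Lv_LINC00673 libraries, against 111, 58.1 and 124 CPM in Lv_NC libraries. It split both groups: Lv_LINC00673 library 3 stood with Lv_NC libraries 1 and 3 at 111 to 133 CPM, and the other 3 libraries lay between 54.4 and 58.1 CPM. SPRED2 averaged 80.5 ± 45.1 CPM in Lv_LINC00673 libraries and 97.8 ± 35.02 CPM in Lv_NC libraries. The log2 fold change was -0.28 (SE 0.46, adjusted p = 0.701), and its 95% interval of -1.43 to 0.87 left a change of more than 2-fold downward within the error. Leaving out Lv_LINC00673 library 3 gave -0.85, still not past the threshold (adjusted p = 0.0928). The SD of log2 CPM within groups was 0.67 for SPRED2, larger than in 98.8% of the 9641 rows, with or without a gene symbol, that had a mean of at least 10 CPM, whose median SD was 0.15. SPRED1 also varied widely, with an SD of 0.31 that was larger than in 87.0% of those genes. The other expressed members were tighter, with SDs of 0.10 for SPRY2, 0.12 for ETV4, 0.07 for ETV5, 0.09 for PHLDA1 and 0.07 for CCND1. What set the SPRED2 level in single libraries was not tested.

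The window around the second annotated SPRED2 start site is shown because it was the window of a member with AP-1 sites (RefSeq, GRCh38.p14, chr2:65366729-65367028, minus strand, 5′ to 3′). Capitals mark the 2 matches to TGANTCA, of which TGACTCA begins 6 bases before the start site and TGAATCA lies after it.
SPRED2 start site 2: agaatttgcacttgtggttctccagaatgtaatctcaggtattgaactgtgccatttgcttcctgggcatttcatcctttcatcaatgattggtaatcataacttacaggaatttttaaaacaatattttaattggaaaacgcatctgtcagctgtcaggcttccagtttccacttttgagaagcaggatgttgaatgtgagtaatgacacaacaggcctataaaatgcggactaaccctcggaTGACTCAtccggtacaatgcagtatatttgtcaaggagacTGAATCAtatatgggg
This start site lies within the SPRED2 span, downstream of start site 1, and gene-level counts do not tell start sites apart.

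Of the ETS factor genes, the main fit called ETV1 higher and ETV4 lower and did not call ETV5, and the ETV4 call depended on the processing. ETV1 lies on chromosome 7 (13891229 to 13991425 on the minus strand) and encodes an ETS activator known as an oncogenic fusion partner in prostate cancer and Ewing sarcoma. It had 276, 257 and 272 counts in Lv_LINC00673 libraries and 111, 80 and 99 counts in Lv_NC libraries. Scaled, these were 3.77, 3.84 and 3.99 CPM in Lv_LINC00673 libraries, against 1.43, 0.987 and 1.36 CPM in Lv_NC libraries. Each Lv_LINC00673 library was well above each Lv_NC library, and the 3 Lv_LINC00673 libraries differed from each other by no more than 1.06 times. ETV1 averaged 3.87 ± 0.112 CPM in Lv_LINC00673 libraries and 1.26 ± 0.239 CPM in Lv_NC libraries. The log2 fold change was 1.62 (SE 0.21, 95% interval 1.14 to 2.10, adjusted p = 0.00399), a 3.07-fold higher level with an interval of 2.198 to 4.28. The level stayed low in both groups, at 0.563, 0.878 and 0.648 FPKM in Lv_LINC00673 libraries and 0.204, 0.142 and 0.187 FPKM in Lv_NC libraries.

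The window around the second annotated ETV1 start site is shown because ETV1 was the member that rose and this window was the one with a CIC octamer (RefSeq, GRCh38.p14, chr7:13991376-13991675, minus strand, 5′ to 3′). Capitals mark the match, TGAATGGA, at 13991543 to 13991550, which begins 125 bases before the start site.
ETV1 start site 2: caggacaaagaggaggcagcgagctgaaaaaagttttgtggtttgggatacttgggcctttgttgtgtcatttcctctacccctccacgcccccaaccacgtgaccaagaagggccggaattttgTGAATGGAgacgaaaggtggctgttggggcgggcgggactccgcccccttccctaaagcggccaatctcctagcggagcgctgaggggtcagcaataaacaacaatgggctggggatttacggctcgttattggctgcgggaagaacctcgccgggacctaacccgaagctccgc
The other 5 ETV1 windows held none of the 3 motifs. RNA of CIC itself, the repressor that binds such octamers, averaged 201 ± 26.9 CPM in Lv_LINC00673 libraries and 190.4 ± 18.7 CPM in Lv_NC libraries and did not pass the test (log2 fold change 0.08, adjusted p = 0.657).

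ETV4, on chromosome 17 (43527846 to 43546340), was the most abundant of the ETS factor genes. It had 207, 172 and 185 CPM in Lv_LINC00673 libraries, against 224, 248 and 249 CPM in Lv_NC libraries. All Lv_LINC00673 libraries were lower than all Lv_NC libraries, by a narrow margin between Lv_LINC00673 library 1 and Lv_NC library 1. ETV4 averaged 188 ± 18.1 CPM in Lv_LINC00673 libraries and 240.4 ± 14.5 CPM in Lv_NC libraries. Its log2 fold change was -0.35 (SE 0.10, 95% interval -0.57 to -0.13, adjusted p = 0.0286), or 78.3% of the Lv_NC level. On the FPKM scale the groups overlapped, with 98.2, 86.3 and 91.7 in Lv_LINC00673 libraries and 94.9, 104 and 105 in Lv_NC libraries. With the offset for GC content and length the ETV4 log2 fold change was 0.03 (adjusted p = 0.748), of the opposite sign. The call was also lost when library totals replaced TMM (-0.19, adjusted p = 0.115) and when Lv_LINC00673 library 2, Lv_LINC00673 library 3, Lv_NC library 2 or Lv_NC library 3 was left out (adjusted p = 0.0940, 0.0963, 0.0832 and 0.0959). The helicase gene DHX8 overlaps ETV4 in the annotation, and whether counting used strand is not stated, so reads of the 2 genes may be mixed. DHX8 moved the other way, with 2654, 2816 and 2377 counts in Lv_LINC00673 libraries and 2462, 1943 and 1734 counts in Lv_NC libraries (log2 fold change 0.51, SE 0.15, adjusted p = 0.0337).

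ETV5, on chromosome 3 (186046314 to 186109089), is the PEA3-type factor with roles in stem cell and germ cell maintenance. It had 83.2, 89.8 and 94.9 CPM in Lv_LINC00673 libraries, against 104, 98.9 and 100.2 CPM in Lv_NC libraries. The groups did not overlap, but the difference was small and did not pass the test, with averages of 89.3 ± 5.87 CPM in Lv_LINC00673 libraries and 100.9 ± 2.37 CPM in Lv_NC libraries. The log2 fold change was -0.18 (SE 0.09, 95% interval -0.37 to 0.02, adjusted p = 0.161). In FPKM the groups overlapped, with 20.1, 22.9 and 23.8 in Lv_LINC00673 libraries and 23.3, 21.7 and 22.4 in Lv_NC libraries. An antisense gene, ETV5-AS1, overlaps ETV5 in the annotation and was not analysed here, nor was PHLDA1-AS1, which overlaps PHLDA1.

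The 2 output genes outside these families did not pass the test. PHLDA1, a pleckstrin homology domain gene induced by growth factors, lies on chromosome 12 (76025447 to 76031776). It had 78.6, 68.4 and 72.1 CPM in Lv_LINC00673 libraries, against 70.7, 78.8 and 73.8 CPM in Lv_NC libraries, so the groups overlapped fully. PHLDA1 averaged 73.0 ± 5.13 CPM in Lv_LINC00673 libraries and 74.4 ± 4.13 CPM in Lv_NC libraries. The log2 fold change was -0.03 (SE 0.09, 95% interval -0.24 to 0.18, adjusted p = 0.854), and its sign turned with library totals, at 0.14. With the GC and length offset PHLDA1 was called lower (-0.45, SE 0.13, adjusted p = 0.0322), whereas its FPKM values were higher without overlap, at 13.1, 12.1 and 12.5 in Lv_LINC00673 libraries and 10.997, 11.9 and 11.4 in Lv_NC libraries. The direction of PHLDA1 thus differed between processings, and the reason was not tested.

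CCND1, on chromosome 11 (69641156 to 69654474), encodes cyclin D1 and had the most reads of the members. Its counts were 23351, 22187 and 24929 in Lv_LINC00673 libraries and 25202, 26038 and 23405 in Lv_NC libraries. Scaled, these were 319, 331 and 366 CPM in Lv_LINC00673 libraries and 326, 321 and 321 CPM in Lv_NC libraries. The groups overlapped through Lv_LINC00673 library 1, and Lv_LINC00673 library 3 stood above the rest. CCND1 averaged 339 ± 24.1 CPM in Lv_LINC00673 libraries and 323 ± 2.59 CPM in Lv_NC libraries, with a log2 fold change of 0.07 (SE 0.08, adjusted p = 0.564). The 95% interval was -0.11 to 0.25. In FPKM the Lv_LINC00673 libraries were higher without overlap, at 74.3, 81.5 and 88.5, against 70.7, 67.8 and 69.2 in Lv_NC libraries, and limma on log2(FPKM + 1) gave 0.23 (adjusted p = 0.0735). That fit called 19.5% of 13947 genes higher and 9.56% lower, and of the members it called SPRY2 lower (-0.44, adjusted p = 0.013) and none higher, with ETV1 below its filter. The FPKM values of all genes summed to 818427 to 839063 in Lv_LINC00673 libraries and 911291 to 1140880 in Lv_NC libraries. The part of this difference in the FPKM comparisons was not tested. For CCND1, log2(FPKM + 0.1) gave 0.23 and library totals in place of TMM gave 0.24, against 0.07 with TMM. For SPRY2 these values were -0.46 and -0.47, against -0.63 with TMM.

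Only FPKM, a level per length, allows the members to be ranked against each other. In Lv_LINC00673 libraries ETV4 (92.1 ± 5.94 FPKM) and CCND1 (81.4 ± 7.10 FPKM) came first and overlapped. ETV5 (22.3 ± 1.95 FPKM) and SPRED2 (21.8 ± 10.5 FPKM) came next and overlapped, then PHLDA1 (12.6 ± 0.530 FPKM) and SPRY2 (12.1 ± 0.272 FPKM), which overlapped too. SPRED1 (5.09 ± 1.32 FPKM), ETV1 (0.696 ± 0.163 FPKM), SPRY1 and SPRY4 followed. In Lv_NC libraries ETV4 (101 ± 5.65 FPKM) stood clear of CCND1 (69.3 ± 1.44 FPKM), and SPRY2 (16.8 ± 1.12 FPKM) stood clear of PHLDA1 (11.4 ± 0.466 FPKM). SPRED2 (24.2 ± 8.33 FPKM) and ETV5 (22.5 ± 0.829 FPKM) overlapped there as well, and SPRED1 (3.34 ± 0.471 FPKM) and ETV1 (0.177 ± 0.0321 FPKM) were again the lowest of the tested members.

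**Figure D2:**
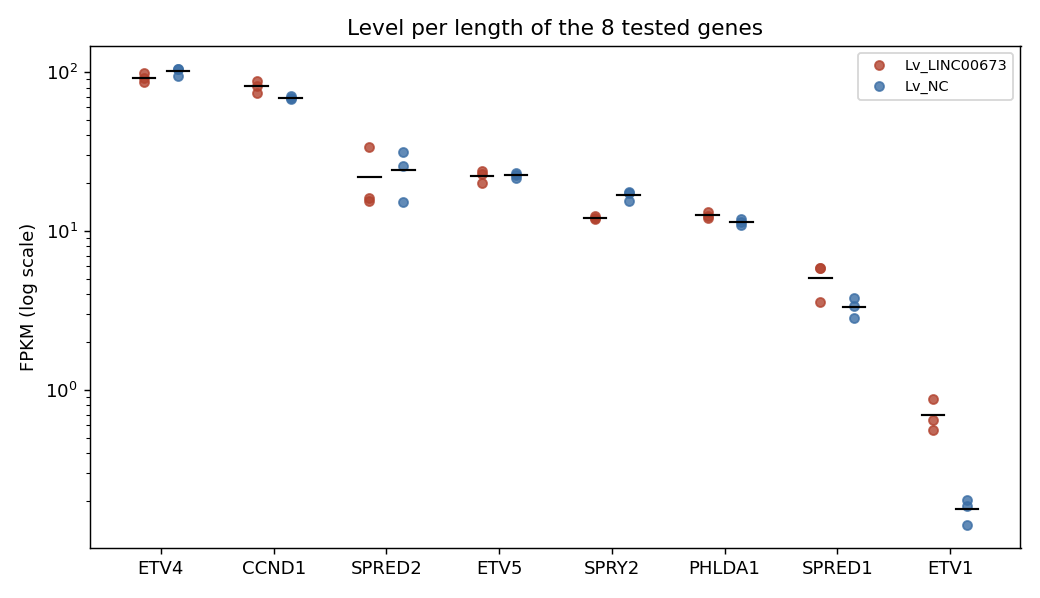
FPKM on a log scale of the 8 tested genes, with points for single libraries, Lv_LINC00673 left of Lv_NC for each gene, and a black bar for the mean. ETV4 and CCND1 lie between 67.8 and 105 FPKM, ETV1 lies below 1 FPKM in every library, and the SPRED2 points of the 2 groups interleave.

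Within families, the share of each paralogue in the summed FPKM was compared, for which 3 against 3 libraries cannot go below an exact two-sided permutation p of 0.10. ETV1 was 0.474, 0.797 and 0.558% of the ETV sum in Lv_LINC00673 libraries, against 0.172, 0.112 and 0.147% in Lv_NC libraries. Its share was higher in all 3 Lv_LINC00673 libraries and reached the smallest p possible (difference 0.466 percentage points, exact p = 0.10). ETV4 stayed the main paralogue, at 79.98 ± 2.30% in Lv_LINC00673 libraries and 81.7 ± 1.38% in Lv_NC libraries (exact p = 0.30), and ETV5 held 19.4 ± 2.17% in Lv_LINC00673 libraries and 18.2 ± 1.35% in Lv_NC libraries (exact p = 0.40). SPRED1 was 18.8, 26.5 and 14.8% of the summed FPKM of SPRED1 and SPRED2 in Lv_LINC00673 libraries. In Lv_NC libraries it was 12.8, 15.8 and 9.65%, and the groups overlapped (exact p = 0.20). That sum leaves out SPRED3, which averaged 11.5 ± 1.09 FPKM in Lv_LINC00673 libraries and 9.55 ± 1.06 FPKM in Lv_NC libraries. SPRY2 held 99.68 to 99.79% of the summed FPKM of SPRY1, SPRY2 and SPRY4 in Lv_LINC00673 libraries and 99.94 to 100% in Lv_NC libraries, a sum that leaves out SPRY3.

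**Figure D3:**
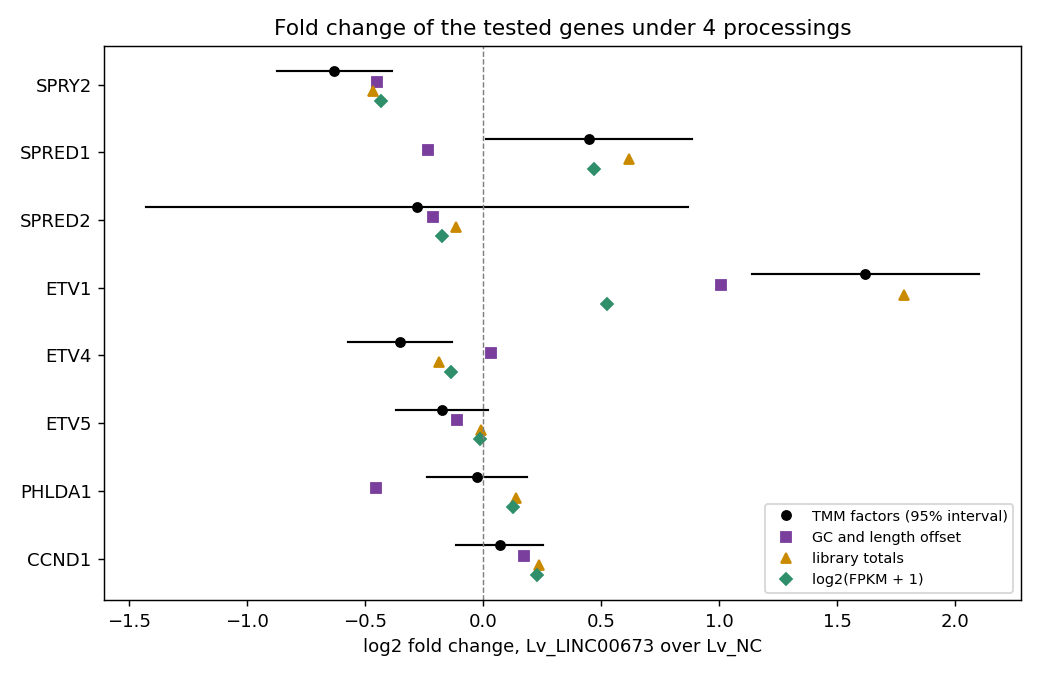
Log2 fold change of Lv_LINC00673 over Lv_NC for each of the 8 tested genes, from edgeR with TMM (with 95% intervals) and, as further markers, from library totals, the GC and length offset and log2(FPKM + 1). ETV1 stays right of 0 and SPRY2 left of 0 under each fit with a value, while the markers of SPRED1, ETV4 and PHLDA1 fall on both sides of 0.

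Fold changes across all genes moved with GC content and transcript length, and the members lie at different places on both scales. Over 11221 genes with a mean of at least 4 CPM, the median log2 fold change was 0.57 in the tenth of genes with the lowest GC content and -0.25 in the tenth with the highest. It was 0.52 in the tenth with the longest transcripts and -0.34 in the tenth with the shortest. ETV1 is AT-rich and long, at percentile 7.36 for GC content and 85.1 for length, and SPRED1 is at 10.4 and 90.1. ETV4 is GC-rich and short, at 87.3 and 25.6, and SPRY2 is in the middle for GC content and short, at 47.3 and 31.4. A fit with an offset for both measures, over the 18532 genes that had them, called 16.5% of genes higher and 11.7% lower. In it ETV1 kept a log2 fold change of 1.01 (adjusted p = 0.00594) and SPRY2 one of -0.45 (adjusted p = 0.00688). ETV4 was no longer called and PHLDA1 was called lower, so 1 member was higher and 2 were lower as before, with PHLDA1 in the place of ETV4. Whether the trend itself is technical was not tested.

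**Figure D4:**
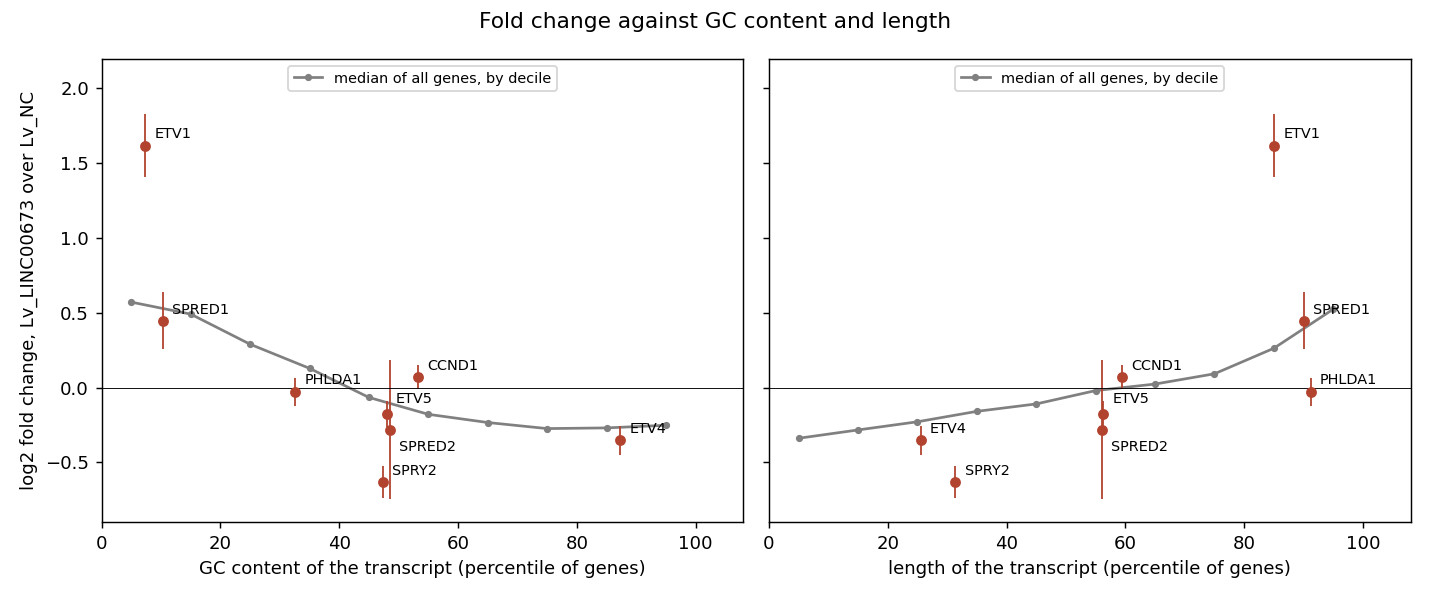
Log2 fold change of Lv_LINC00673 over Lv_NC against the GC percentile and the length percentile of each gene, with labelled points for the 8 tested members and a grey line for the median of all genes in each decile. The grey line runs from 0.57 at the lowest GC content to -0.25 at the highest, and from -0.34 at the shortest length to 0.52 at the longest, and ETV1 lies far above it on both axes.

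Lists of genes around the members were read the same way, against 14.3% and 12.5% of all tested genes higher and lower. The lists were chosen with earlier results of these data known, so their counts are descriptions and carry no test. Of 22 other ERK output genes, 10 were called lower and 3 higher, and the median log2 fold change was -0.19. The largest called changes were in EPHA4, SPRY3 and PHLDA2. EPHA4, an ephrin receptor, averaged 2.83 ± 0.654 CPM in Lv_LINC00673 libraries and 1.14 ± 0.280 CPM in Lv_NC libraries (log2 fold change 1.32, SE 0.28, adjusted p = 0.0122). SPRY3, the remaining Sprouty paralogue, averaged 0.825 ± 0.0430 and 0.343 ± 0.145 CPM in Lv_LINC00673 and Lv_NC libraries (1.26, SE 0.39, adjusted p = 0.0438). Its call was lost under 10 of 18 alternative processings, among them the GC and length offset (0.67, adjusted p = 0.222). PHLDA2, an imprinted relative of PHLDA1, fell to 8.36 ± 1.19 CPM in Lv_LINC00673 libraries, against 18.7 ± 1.71 CPM in Lv_NC libraries (-1.16, SE 0.16, adjusted p = 0.00418). SPRY3 and PHLDA2 each have a second, numbered row in the table, and with these rows summed their log2 fold changes were 1.16 and -1.03. IER3, of the same list, has 5 such rows and was not called with them summed (-0.20, adjusted p = 0.218). With the offset the list counted 8 lower and 1 higher, and its median log2 fold change was -0.08. With each library left out in turn it counted 8 to 11 lower and 0 to 3 higher.

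Of 24 core genes of the pathway, from receptor adaptors to ERK, 11 were higher and 3 lower, with a median log2 fold change of 0.46 that was 0.14 with the offset, where 7 were higher and 2 lower. Without Lv_LINC00673 library 2, Lv_LINC00673 library 3, Lv_NC library 2 or Lv_NC library 3 the number higher was 5, 5, 6 and 5. The number lower ranged from 1 to 6 with a library left out, with the 6 found without Lv_LINC00673 library 1. It was 1 with library totals and 4 with numbered rows summed. With those rows summed RPS6KA1 went from a log2 fold change of 0.33, not called, to -0.42, called lower (adjusted p = 0.0145). HRAS went from 0.04 to -0.36 and was not called (adjusted p = 0.0536). NF1, whose product neurofibromin is the RAS inactivator that SPRED proteins bind, averaged 49.1 ± 11.9 CPM in Lv_LINC00673 libraries and 19.7 ± 7.21 CPM in Lv_NC libraries (log2 fold change 1.32, SE 0.26, adjusted p = 0.00982). SOS1, a RAS activator that works on the opposite side of the same step, averaged 16.8 ± 2.84 CPM in Lv_LINC00673 libraries and 6.86 ± 2.32 CPM in Lv_NC libraries (1.29, SE 0.26, adjusted p = 0.00973). GAB1, a docking protein that recruits the phosphatase SHP2, had 3.44 ± 1.16 CPM in Lv_LINC00673 libraries and 1.11 ± 0.627 CPM in Lv_NC libraries (1.63, SE 0.47, adjusted p = 0.0339). With the offset NF1 and SOS1 were smaller but called (0.59 and 0.60), and GAB1 was not (0.97, adjusted p = 0.0847). The GAB1 call was lost under 7 of 19 alternative processings.

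Of 8 repressors and turnover factors of the ETV genes and proteins, 1 was higher and 2 lower, counts that ranged from 0 to 1 higher and 1 to 2 lower with a library left out. ERF, an ETS repressor that ERK exports from the nucleus, fell to 107.6 ± 10.2 CPM in Lv_LINC00673 libraries, against 223 ± 47.4 CPM in Lv_NC libraries (log2 fold change -1.05, SE 0.15, adjusted p = 0.0045). ATXN1, a partner of CIC, was higher at 45.7 ± 1.93 CPM in Lv_LINC00673 libraries and 32.3 ± 2.63 CPM in Lv_NC libraries (0.50, SE 0.10, adjusted p = 0.0107), and this call was lost with the offset (0.11, adjusted p = 0.407). DDB1, a subunit of the ubiquitin ligase that turns over ETV proteins, averaged 420.0 ± 20.3 CPM in Lv_LINC00673 libraries and 508 ± 26.6 CPM in Lv_NC libraries (-0.27, SE 0.08, adjusted p = 0.0352). The DDB1 call was lost under 13 of 21 alternative processings, among them the offset (-0.12, adjusted p = 0.0949). COP1, the ligase component that recognises ETV proteins, had a log2 fold change of 0.17 and did not pass the test (adjusted p = 0.398).

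Around cyclin D1, 2 of 11 partners were higher and 3 lower. The number lower was 5 without Lv_LINC00673 library 1, 1 without Lv_LINC00673 library 3 and 4 with numbered rows summed. RB1, the protein that cyclin D kinases phosphorylate, averaged 15.5 ± 3.90 CPM in Lv_LINC00673 libraries and 6.08 ± 1.45 CPM in Lv_NC libraries (log2 fold change 1.35, SE 0.25, adjusted p = 0.00778). CDK6, one of the kinases, averaged 106 ± 18.1 CPM in Lv_LINC00673 libraries and 59.6 ± 8.75 CPM in Lv_NC libraries (0.83, SE 0.15, adjusted p = 0.0075), but only 0.03 with the offset (adjusted p = 0.802). CDKN1A, the inhibitor p21, fell to 179 ± 15.1 CPM in Lv_LINC00673 libraries, against 281 ± 5.16 CPM in Lv_NC libraries (-0.66, SE 0.09, adjusted p = 0.00412), and its log2 fold change was -0.25 with the offset (adjusted p = 0.0238).

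**Figure D5:**
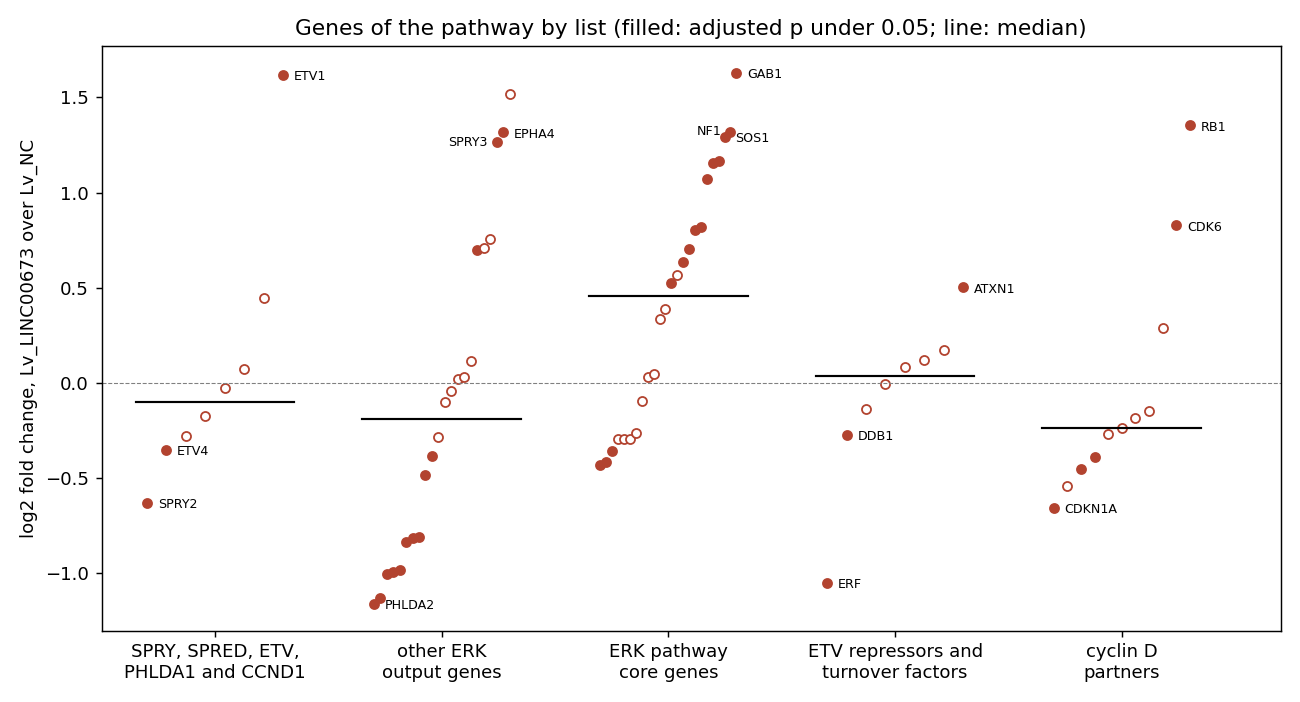
Log2 fold change of Lv_LINC00673 over Lv_NC of every tested gene in the 10-gene set and in the 4 lists around it, 1 point per gene, with filled points for genes past the adjusted p threshold and short bars for list medians. Core genes of the pathway sit mostly above 0 with a median of 0.46, and the other ERK output genes sit mostly below 0 with a median of -0.19.

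The genes whose pattern over the 6 libraries was most like that of the leading paralogue of each family were sought among 8829 tested genes that had a RefSeq symbol other than a LOC number, were not members and had a mean of at least 10 CPM, by the root mean square difference of centred log2 CPM. For SPRY2 these were ACTN1, SNHG6 and TMEM158, at differences of 0.0116, 0.0164 and 0.0239 on a SPRY2 range of 0.76. For ETV4 they were SHC1, CAPNS1 and TBC1D10B, at 0.0166, 0.0173 and 0.0189 on a range of 0.54. SPRED2 had no close match: its nearest genes were DLGAP1-AS2, SSBP1 and DBF4B, at 0.299, 0.333 and 0.343 on a range of 1.28. These likenesses rest on 6 libraries that share their groups and depth, and they carry no test.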

How the data were processed

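TruSeq libraries of total RNA from 6 U2OS samples were sequenced, per the labels. The authors deposited a raw count and an FPKM value for each gene and library, and 0 sample columns went unmatched. The build was hg38 according to the submitters' processing notes. Aligner, counter, annotation and strand use are not stated.

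Libraries were grouped by title. Rows passing filterByExpr were scaled with TMM, and edgeR 4.0.16 (R 4.3.3) gave two-sided quasi-likelihood tests with robust settings. Benjamini-Hochberg adjustment covered 21933 genes, at a threshold of 0.05. SE is the log2 fold change over the square root of F. FPKM was tested with limma 3.58.1 on log2(FPKM + 1), at a minimum of 1 FPKM, which left ETV1 out. Fold changes on that scale understate low genes. The offset fit used splines of GC content and longest GENCODE transcript length, matched for 84.49% of tested genes. Alternatives were DESeq2 1.42.0, limma-voom, other scalings, filters and pseudocounts, each library left out, a replicate block and, added after seeing the data, numbered copies summed.

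The members and lists were chosen with earlier results of these data known. Beyond the members, up to 3 genes per list were named, those with the largest called changes. CIC and COP1 were named after their values were seen. The main edgeR fit and a limma fit were run on simulated counts with known changes. That simulation used the same dispersion for all genes and no GC or length trend, and the other fits were not simulated.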

Additional observations from a re-analysis of the deposited data

How the results depend on the processing

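ETV1 was called higher under all 19 alternatives that gave it a value (log2 fold change 0.52 to 1.78, adjusted p 1.31e-08 to 0.0462), and SPRY2 had a negative value under all 21 (-0.70 to -0.44, adjusted p 7.76e-06 to 0.0544), losing its call with the replicate block. Library totals in place of TMM moved the median of all genes by 0.17. The sign reversed for SPRED1 with the GC and length offset (-0.23, and -0.24 with the replicate block) and for ETV4 with the same fits (0.031 and 0.032). It reversed for PHLDA1 with library totals (0.14), a filter of 1 CPM in 3 libraries (0.0080), log2(FPKM + 1) with and without a filter (0.12 and 0.12), log2(FPKM + 0.1) (0.13), without Lv_LINC00673 replicate 2 (0.00062) and without Lv_NC replicate 2 (0.011), with a range of -0.098 to 0.011 over replicates left out. The cause was not tested.

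Of all genes, 3145 were higher and 2738 lower. Library totals gave 1224 lower, log2(FPKM + 1) 1333 lower, log2(FPKM + 0.1) 1318 lower, and log2(FPKM + 1) without a filter 1859 higher and 719 lower. Leaving out each replicate in turn gave 1453 to 3254 higher and 1172 to 3269 lower, with fewer calls in both directions without Lv_LINC00673 replicate 2, Lv_LINC00673 replicate 3, Lv_NC replicate 2 or Lv_NC replicate 3. The members called higher numbered 0 with the 2 filtered FPKM fits, in which ETV1 was not tested, and 1 to 2 with a replicate left out. The members called lower numbered 1 with library totals, 1 with each of the 3 FPKM fits and 1 to 2 with a replicate left out. Dividing counts by transcript length moved the SPRY1 share difference to 0.298 and that of SPRY2 to -0.342 percentage points.

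Deviations of same-numbered libraries from their group means correlated at -0.423, -0.359 and 0.041. The highest correlations were between differently numbered libraries, at 0.449 for Lv_LINC00673 replicate 1 with Lv_NC replicate 2. Lv_LINC00673 replicate 2 with Lv_NC replicate 1 gave 0.354. Deviations from the mean of 3 libraries are tied to each other, so these values do not settle whether libraries were paired. A replicate block gave 800 genes higher and 408 lower, and with the offset 1709 and 1310. The block left 0 members lower, and 1 with the offset, and of the 24 core pathway genes 1 higher and 0 lower. Under it SPRY2 had -0.63 (adjusted p = 0.0544) and ETV4 -0.36 (adjusted p = 0.117).

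LINC00673 was called lower by DESeq2 alone among its 19 alternatives (-0.44, adjusted p = 0.0421). SPRY1 and SPRY4 had at most 9 counts in a library and were below the filter of the main fit. In edgeR with no filter neither passed the test (adjusted p = 0.129 for SPRY1 and 0.888 for SPRY4).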
